A study of Homo sapiens with 4 samples.

Results

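Interferon-stimulated effector genes encode the proteins with which a cell answers interferon and blocks viruses. Their members were set by a list of 46 gene symbols, and a member was read from every probe set that the array annotation assigns to that symbol alone. Of these 46 genes, 43 had such a probe set, 125 probe sets in all, among 18132 genes and 49395 probe sets on the array. TDRD7 and PHF11 were not analysed here, and USP18 was not analysed because its probe set is annotated with several symbols. RNA from 2 human cell lines was hybridised to 4 arrays. SKM-1 is a leukemia line derived from a myelodysplastic syndrome (MDS), and MDS-L is an MDS line that needs IL-3, given at 100 U/ml. Each line was cultured with decitabine (DAC) at 1 μM, given as 5 pulses of 24 h over 5 days, or with DMSO, the solvent control, whose schedule is not given. The 4 groups were SKM-1 with DAC, SKM-1 with DMSO, MDS-L with DAC and MDS-L with DMSO, with 1 array each. No condition therefore has a replicate, and each line stands for itself only.

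Type I interferon binds the receptor IFNAR and activates the kinases JAK1 and TYK2 at the cell membrane. The signal ends at the interferon-stimulated response element (ISRE), a repeat of GAAA in the promoters of the genes it switches on. The proteins made from these genes act at separate steps of infection, from entry and uncoating to RNA replication and budding, and some mark other proteins with the ubiquitin-like protein ISG15. DAC is a cytidine analog that is built into DNA and traps DNA methyltransferases, so that methylation at CpG sites is lost as cells divide.

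Promoter windows were read for these genes to ask how many of them carry this repeat. RefSeq starts on build GRCh38.p14 gave windows of 300 bases, 250 before and 50 after each start, for 38 of the 43 genes. The motif searched was GAAA, any 2 bases and GAAA again, on either strand (TTTC, any 2 bases and TTTC when read on the strand of the gene), and matches could overlap. It was found in 26 of 38 effector genes (68.4%), against 4.38% of all 27305 genes with a window and 3.99% of the 10881 such genes measured in either cell line. At least 2 matches in a window were found in 9 effector genes (23.7%), against 0.311% of all genes. The windows of these genes also held few CpG sites, with a median of 9 in 53 windows, against 14 in 35116 windows of all genes and 24 in 15757 windows of measured genes. A match is a description of these letters and shows no binding.

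The stretches below are shown because they belong to genes at least 2-fold higher with DAC in a cell line, read 5′ to 3′ on the strand of the gene and ending before its start, with motif matches in capitals.
IFI27, chr14:94110616-94110662, plus strand: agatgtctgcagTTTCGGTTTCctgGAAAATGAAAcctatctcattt
IFI44, chr1:78649759-78649788, plus strand: gggcacactgagTTTCAGTTTCctttctct
IFI44L, chr1:78620363-78620396, plus strand, with the same letters again at chr1:78620272-78620305: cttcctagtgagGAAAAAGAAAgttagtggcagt
IFI6, chr1:27672264-27672319, minus strand: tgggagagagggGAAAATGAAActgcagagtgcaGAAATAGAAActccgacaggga
ISG15, chr1:1013372-1013411, plus strand: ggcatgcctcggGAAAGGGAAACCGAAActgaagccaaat
BST2, chr19:17405733-17405772, minus strand: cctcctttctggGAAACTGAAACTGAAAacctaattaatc
RSAD2, chr2:6877620-6877653, plus strand, before the second of its annotated starts: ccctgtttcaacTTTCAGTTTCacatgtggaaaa
LGALS3BP, chr17:78979960-78979993, minus strand: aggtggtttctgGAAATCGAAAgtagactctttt
EPSTI1, chr13:42992270-42992303, minus strand: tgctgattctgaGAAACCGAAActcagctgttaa
DDX60, chr4:168318784-168318817, minus strand: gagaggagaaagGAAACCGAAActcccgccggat
ISG20, chr15:88638935-88638968, plus strand: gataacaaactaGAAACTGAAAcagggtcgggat
PARP9, chr3:122564320-122564353, minus strand, a site that also lies at the start of DTX3L on the other strand: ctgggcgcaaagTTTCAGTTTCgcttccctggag
ISG15 and BST2 each carry 2 overlapping matches, which make 3 GAAA repeats in a row, and IFI27 carries matches in opposite orientations separated by 3 bases. The windows of IFI6 and DDX60 each hold a further match that is not printed. The whole stretch before the upstream start of IFI27, chr14:94110486-94110735, plus strand, holds only 3 CpG sites in 250 bases, and it is printed because IFI27 had the largest increase of all measured genes in SKM-1.
IFI27 upstream: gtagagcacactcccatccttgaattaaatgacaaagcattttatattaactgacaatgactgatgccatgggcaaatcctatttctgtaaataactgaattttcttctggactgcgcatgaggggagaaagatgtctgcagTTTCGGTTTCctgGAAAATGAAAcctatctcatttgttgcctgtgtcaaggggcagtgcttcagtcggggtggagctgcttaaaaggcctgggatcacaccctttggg
The next 2 genes carry the same motif and are shown because their changes had opposite signs in the lines. The window of HERC5 holds a further match that is not printed.
HERC5, chr4:88456982-88457021, plus strand: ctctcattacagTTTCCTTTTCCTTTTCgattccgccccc
TRIM14, chr9:98119227-98119260, minus strand: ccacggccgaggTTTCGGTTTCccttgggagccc

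**Figure D1:**
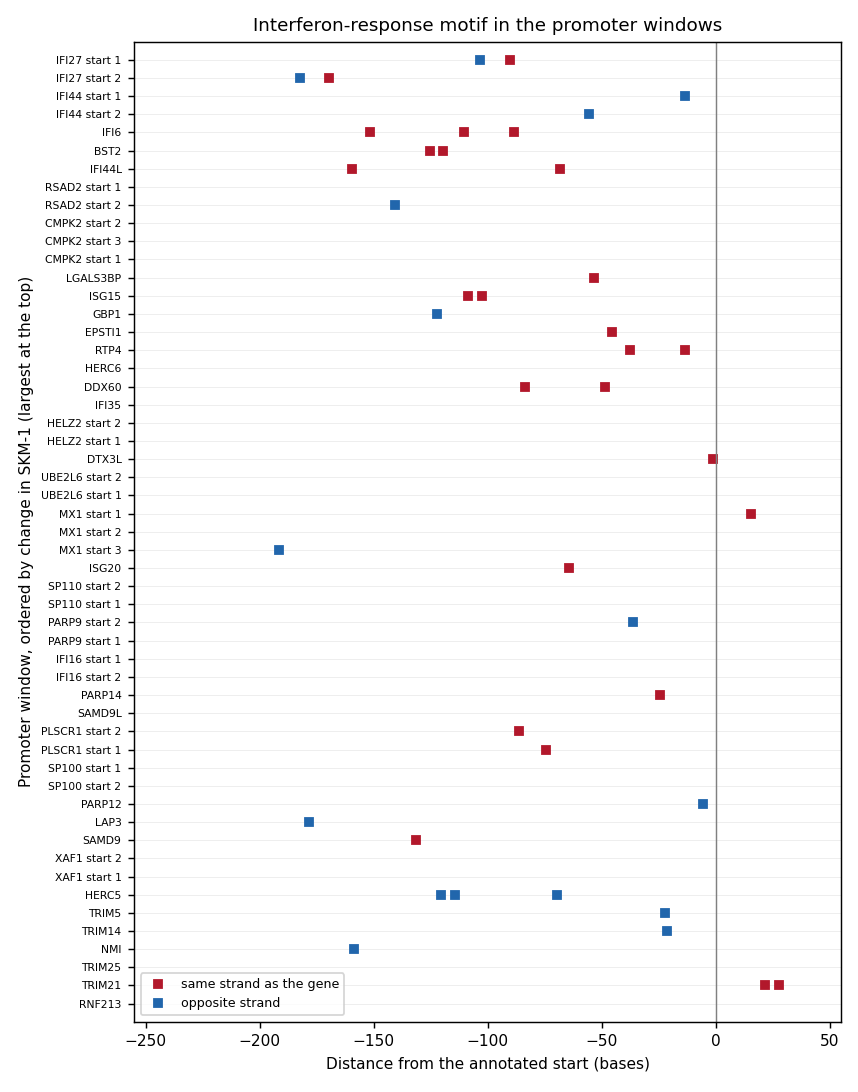
Position of matches of the GAAA repeat in the 53 promoter windows of 38 effector genes, as distance of the match centre from the annotated start in bases, with 1 row per window and the genes ordered by their change with DAC in SKM-1, as deposited. Red squares are matches on the strand of the gene and blue squares on the opposite strand. Matches appear along the whole order, and 26 of the 38 genes have at least 1.

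By these counts the motif did not clearly sort the genes by their change in SKM-1. It was found in 13 of 19 effector genes at least 2-fold higher there and in 13 of the 19 others. Those others include RTP4, which had no value, and MX1 and GBP1, whose increases were only bounded, and each of them carries the motif. As deposited, the SKM-1 changes of MX1 and GBP1 were 1.32 and 2.02, from DMSO values under background. The median log2 change in SKM-1 was 1.12 for 25 measured genes with the motif and 1.09 for 12 without it. The median with the motif takes the bounds of MX1 and GBP1 as values. In MDS-L the medians were 0.45 for 23 genes with the motif and 0.20 for 12 without it, and all 6 genes at least 2-fold higher in MDS-L carried it. These are descriptions of 1 array per condition, with no test.

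Expression is given as the deposited log2 value per probe set and array, on which a difference of 1 is a 2-fold difference. Values ran from 2.11 to 14.99, and 60.7% to 63.0% of probe sets lay above background on an array. Background was set for each array at the 90th percentile of 359 olfactory receptor probe sets, at 5.07 for SKM-1 with DAC, 4.88 for SKM-1 with DMSO, 5.09 for MDS-L with DAC and 4.84 for MDS-L with DMSO. Where a gene had several probe sets, the one with the highest mean of its 4 values stood for it. Genes above background with DAC, with DMSO or with both counted as measured in that line, and a value under background was raised to it before a fold change was taken. An increase from a raised DMSO value is a lower bound, written as at least. Of the myeloid markers, MPO, CEBPA and LYZ lay above background on all 4 arrays, and KIT and CD14 lay under background in SKM-1. Of 10 myeloid markers, 0 were 2-fold different in SKM-1, while in MDS-L ITGAM was 2.58-fold and CD14 2.02-fold higher with DAC and CEBPA was 2.64-fold lower. The log2 values of these 10 summed to 76.3 with DAC and 72.1 with DMSO in SKM-1, and to 85.4 with DAC and 85.0 with DMSO in MDS-L. Erythroid markers and 3 of 4 B cell markers were measured in both lines, while the B cell marker MS4A1 lay under background on all 4 arrays. Of 7 T and NK cell markers, 5 were measured in MDS-L and all 5 were higher with DAC, with CD3D at least 16.7-fold and CD2 at least 2.70-fold higher, and 0 were 2-fold different in SKM-1. The log2 values of these 7 markers summed to 36.8 with DAC and 36.3 with DMSO in SKM-1, and to 43.0 with DAC and 34.2 with DMSO in MDS-L, and CD3G lay under background on all 4 arrays. These sums use values as deposited, and CD3D alone rose by 4.92 in MDS-L, from a DMSO value under background. CD3E, CD8A and NKG7 rose there by 0.43 to 0.64. The part of all these markers in the values below was not tested.

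Every measured effector gene had a higher value with DAC in SKM-1. All 42 measured genes lay above 0 (54.8% over all genes), and 22 of 42 were at least 2-fold higher, where 2.71% of all 12714 were. The median log2 change was 1.21 (2.31-fold), against 0.05 over all measured genes. In MDS-L the changes were smaller, with 36 of 40 measured genes above 0, where 53.7% of all genes were, and 6 of 40 at least 2-fold higher, where 3.62% of 12688 genes were. The median there was 0.39 (1.31-fold), against 0.04 over all genes. Of the measured effector genes, 6 in SKM-1 and 2 in MDS-L were above background only with DAC, so that the rule for raised values fixed their sign. Among genes above background with DMSO, a restriction chosen after seeing the data, 36 of 36 lay above 0 and 18 of 36 were at least 2-fold higher in SKM-1, where 53.8% and 2.60% of 12448 genes were. In MDS-L these counts were 34 and 5 of 38, where 52.4% and 2.97% of 12342 genes were. At least 2-fold lower were 0 effector genes in either line, where 1.43% of genes were in SKM-1 and 3.18% in MDS-L. Among the 10 largest increases in SKM-1 6 were effector genes, and among the 50 largest 14 were, whereas in MDS-L these counts were 0 and 1. Effector genes made up 42 of the 12714 ranked genes in SKM-1 and 40 of the 12688 in MDS-L. In RNA from whole cultures, more cells that express a gene and more RNA per cell cannot be told apart.

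The same 6 genes were at least 2-fold higher in both lines, and none of the 40 genes measured in both was 2-fold higher in MDS-L only. With quantile normalization GBP2 became such a gene, with log2 changes of 0.15 in SKM-1 and 1.08 in MDS-L. XAF1 did by probe sets other than the representing one, with 1.09 and 1.05 in MDS-L, where the rest gave 0.39 (a lower bound) to 0.95. In SKM-1 the XAF1 probe sets above background gave 0.56 and at least 0.31. The 6 genes higher in both are ISG15, IFI27, IFI6, BST2, EPSTI1 and ISG20, 6 of 40, where 0.384% of 11984 genes measured in both lines met that mark. A further 16 genes were at least 2-fold higher in SKM-1 and not in MDS-L. The change was larger in SKM-1 for 36 of 40 genes, where it was larger for 52.6% of all genes, and larger by at least 1 log2 unit for 17 of 40, where 5.32% of all genes were. It was larger in MDS-L for ISG20, SAMD9L, GBP2 and XAF1. A difference between the lines in their response leaves no degree of freedom for error and was not tested.

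**Figure D2:**
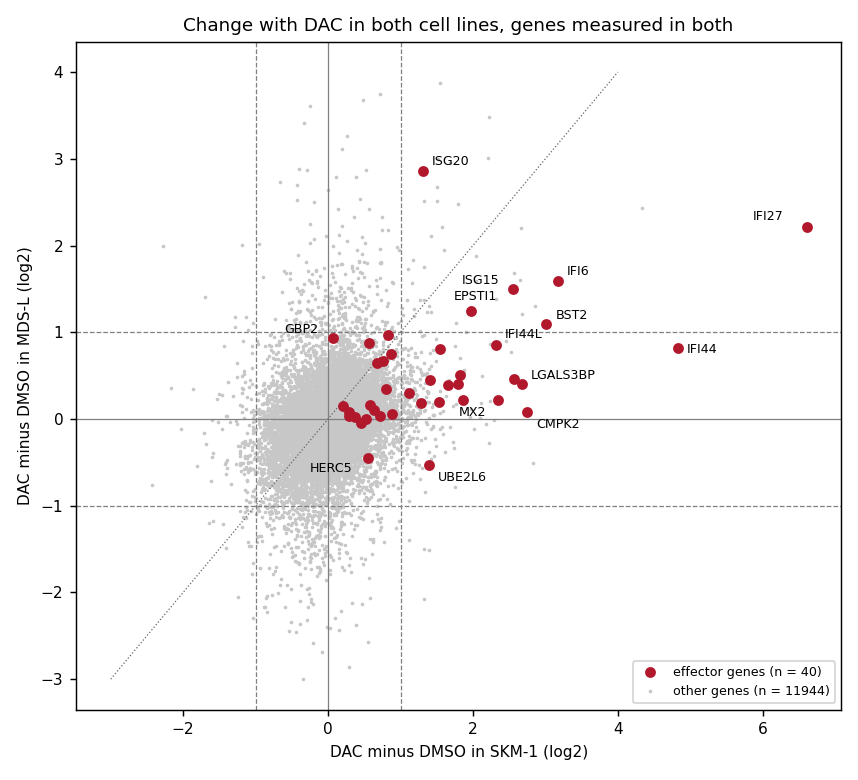
DAC minus DMSO on the log2 scale in SKM-1 (horizontal) and MDS-L (vertical) for the 11984 genes measured in both lines, with 40 effector genes in red and other genes in grey. Dashed lines mark 2-fold changes and the dotted line marks equal changes. Of the red points, 36 lie on the SKM-1 side of the dotted line, and ISG20 lies farthest on the MDS-L side.

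ISG15 is a ubiquitin-like protein that is both secreted and attached to other proteins, and its enzymes form a short chain from activation to ligation. ISG15 lay at 14.29 with DAC and 11.74 with DMSO in SKM-1, and at 11.47 with DAC and 9.97 with DMSO in MDS-L (log2). It was 5.85-fold higher with DAC in SKM-1 and 2.83-fold higher in MDS-L, and both MDS-L arrays lay below both SKM-1 arrays. UBE2L6, the conjugating enzyme that carries ISG15, lay at 11.21 with DAC and 9.82 with DMSO in SKM-1, and at 9.60 with DAC and 10.13 with DMSO in MDS-L. The DAC array was thus the higher one in SKM-1 (2.62-fold) and the lower one in MDS-L (log2 change -0.53). HERC5, the main ligase for ISG15 in human cells, lay at 9.79 with DAC and 9.24 with DMSO in SKM-1, and at 7.69 with DAC and 8.14 with DMSO in MDS-L, which is the same split of signs at a smaller size. Its relative HERC6 lay at 7.66 with DAC and 5.79 with DMSO in SKM-1, and at 6.74 with DAC and 6.53 with DMSO in MDS-L. HERC6 was 3.65-fold higher in SKM-1, where HERC5 was 1.46-fold higher, so the relatives differed in size. Of these 4 genes, 3 were at least 2-fold higher in SKM-1 and 1 was in MDS-L.

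Genes that act on RNA and nucleotides included ISG20, the effector gene whose log2 change was larger in MDS-L by over 1 unit. RSAD2 (viperin), a radical SAM enzyme that makes a chain-terminating nucleotide, lay at 7.45 with DAC and 4.70 with DMSO in SKM-1, and at 7.82 with DAC and 7.36 with DMSO in MDS-L. The SKM-1 array with DMSO was under background, so the increase was at least 5.90-fold there, and it was 1.38-fold in MDS-L. CMPK2, a mitochondrial nucleotide kinase whose gene neighbours RSAD2, lay at 10.35 with DAC and 7.61 with DMSO in SKM-1, and at 12.43 with DAC and 12.35 with DMSO in MDS-L. The gene was 6.71-fold higher with DAC in SKM-1 and 1.06-fold higher in MDS-L, where both arrays lay above those of SKM-1. ISG20, an exonuclease that degrades single-stranded RNA, ran the other way between the lines. It lay at 6.98 with DAC and 5.67 with DMSO in SKM-1, and at 8.13 with DAC and 5.27 with DMSO in MDS-L. ISG20 was 2.48-fold higher in SKM-1 and 7.27-fold higher in MDS-L, and it ranked 23 of 12688 genes by change in MDS-L, the highest place of an effector gene there.

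The helicase-like proteins and the SAMD9 pair had smaller differences in SKM-1 than RSAD2 and CMPK2. DDX60, a helicase that aids RIG-I, lay at 9.70 with DAC and 7.88 with DMSO in SKM-1, and at 8.30 with DAC and 7.79 with DMSO in MDS-L, 3.53-fold and 1.42-fold higher. HELZ2, a helicase and transcriptional coactivator, lay at 6.98 with DAC and 5.43 with DMSO in SKM-1, and at 7.23 with DAC and 6.42 with DMSO in MDS-L. It was 2.93-fold higher in SKM-1 by that probe set, and another probe set of the gene gave a log2 change of 0.59. ZNFX1, a helicase-like sensor of viral RNA, was 1.60-fold higher in SKM-1 and 1.56-fold in MDS-L, nearly the same in both. SAMD9, a poxvirus restriction factor, was 1.49-fold higher in SKM-1 and 1.11-fold in MDS-L, and its paralog SAMD9L was 1.77-fold and 1.96-fold higher. In all, 5 of 8 genes of this group were at least 2-fold higher in SKM-1 and 1 of 8 was in MDS-L.

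Among the dynamin-like GTPases and guanylate-binding proteins, paralogs gave unlike values. MX2, which blocks nuclear entry of HIV-1, lay at 9.73 with DAC and 7.38 with DMSO in SKM-1, and at 8.47 with DAC and 8.25 with DMSO in MDS-L. It was 5.09-fold higher in SKM-1 and 1.16-fold higher in MDS-L. MX1, which blocks influenza virus, lay close to or under background, at 5.27 with DAC and 3.95 with DMSO in SKM-1 and at 4.06 with DAC and 3.46 with DMSO in MDS-L. Its increase in SKM-1 was therefore only bounded, at least 1.31-fold, and MDS-L gave no value. GBP1, a GTPase that coats the membranes of intracellular pathogens, lay at 5.26 with DAC and 3.24 with DMSO in SKM-1 and at 4.90 with DAC and 3.62 with DMSO in MDS-L, at least 1.30-fold higher in SKM-1 and under background on both MDS-L arrays. GBP2 was well above background on all 4 arrays, at 10.10 with DAC and 10.02 with DMSO in SKM-1 and at 9.39 with DAC and 8.46 with DMSO in MDS-L. GBP2 was 1.05-fold higher in SKM-1 and 1.91-fold higher in MDS-L, one of the 4 genes with the larger change in MDS-L. RNF213, a large ubiquitin ligase with an ATPase core, was 1.15-fold and 1.11-fold higher.

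PARP9 and DTX3L form a complex that modifies histones and interferon signaling proteins, and their genes lie head to head. PARP9 lay at 9.87 with DAC and 8.75 with DMSO in SKM-1, and at 8.06 with DAC and 7.76 with DMSO in MDS-L. DTX3L lay at 9.75 with DAC and 8.34 with DMSO in SKM-1, and at 8.53 with DAC and 8.08 with DMSO in MDS-L. The partners were 2.18-fold and 2.66-fold higher in SKM-1 and 1.23-fold and 1.37-fold higher in MDS-L. PARP10, a mono-ADP-ribosyltransferase, lay at 9.54 with DAC and 7.75 with DMSO in SKM-1, and at 8.24 with DAC and 7.84 with DMSO in MDS-L, 3.45-fold and 1.32-fold higher. PARP12 was 1.65-fold and 1.03-fold higher, and PARP14 was 1.82-fold and 1.69-fold higher. All 5 genes of this group lay above 0 in both lines, 3 of 5 were at least 2-fold higher in SKM-1 and 0 of 5 were in MDS-L.

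TRIM proteins and components of nuclear bodies had small differences, with a median log2 change of 0.64 in SKM-1 and 0.07 in MDS-L over 8 genes. TRIM22, a ubiquitin ligase of the same cluster as TRIM5, lay at 10.97 with DAC and 9.43 with DMSO in SKM-1, and at 8.80 with DAC and 8.60 with DMSO in MDS-L. It was 2.90-fold higher in SKM-1 and 1.15-fold higher in MDS-L, whereas TRIM5, which binds the retroviral capsid, was 1.43-fold higher in SKM-1 and had the same value of 7.38 on both MDS-L arrays. SP110, a nuclear body protein, lay at 10.57 with DAC and 9.28 with DMSO in SKM-1, and at 8.19 with DAC and 8.00 with DMSO in MDS-L, 2.44-fold and 1.14-fold higher. SP100, another nuclear body protein, was 1.69-fold and 1.59-fold higher. TRIM14, an adaptor of MAVS signaling, lay at 8.26 with DAC and 7.81 with DMSO in SKM-1, and at 6.31 with DAC and 6.36 with DMSO in MDS-L. The antibody receptor TRIM21 was 1.22-fold higher in SKM-1, and TRIM25, the ligase that activates RIG-I, was 1.23-fold higher. IFI16, a nuclear DNA sensor, lay at 7.50 with DAC and 6.61 with DMSO in SKM-1, and at 10.04 with DAC and 9.99 with DMSO in MDS-L, so both MDS-L arrays were above both SKM-1 arrays.

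Membrane, mitochondrial and secreted proteins had the largest differences of the role groups, with a median log2 change of 2.85 in SKM-1 and 0.98 in MDS-L over 6 measured genes. IFI27, a small mitochondrial protein, lay at 12.21 with DAC and 5.60 with DMSO in SKM-1, and at 7.60 with DAC and 5.38 with DMSO in MDS-L. The lines were within 0.22 of each other with DMSO and 4.61 apart with DAC. IFI27 was 97.4-fold higher in SKM-1, ranking 1 of 12714 genes, and 4.64-fold higher in MDS-L, ranking 57. IFI6, a paralog that protects cells from flaviviruses, lay at 12.86 with DAC and 9.69 with DMSO in SKM-1, and at 10.74 with DAC and 9.14 with DMSO in MDS-L, 9.04-fold and 3.02-fold higher. BST2 (tetherin), which holds budding virions at the cell surface, lay at 7.90 with DAC and 4.77 with DMSO in SKM-1, and at 8.37 with DAC and 7.28 with DMSO in MDS-L. The SKM-1 array with DMSO alone was under background, and BST2 was at least 8.07-fold higher in SKM-1 and 2.13-fold higher in MDS-L. LGALS3BP, a secreted glycoprotein that binds galectins, lay at 7.91 with DAC and 5.23 with DMSO in SKM-1, and at 5.49 with DAC and 5.10 with DMSO in MDS-L, 6.40-fold and 1.32-fold higher. PLSCR1, a lipid scramblase, was 1.73-fold and 1.27-fold higher. XAF1, an antagonist of XIAP, was 1.48-fold higher in SKM-1 and 1.83-fold in MDS-L. RTP4, a chaperone of G protein-coupled receptors, was under background on all 4 arrays, at 4.91 with DAC and 2.98 with DMSO in SKM-1 and at 3.79 with DAC and 3.55 with DMSO in MDS-L, and gave no fold change.

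IFI44 and IFI44L, neighbouring paralogs of the cytosol, gave some of the largest bounds. IFI44 lay at 9.71 with DAC and 4.36 with DMSO in SKM-1, and at 8.86 with DAC and 8.04 with DMSO in MDS-L. Only the SKM-1 array with DMSO was under background, and IFI44 was at least 28.4-fold higher in SKM-1 and 1.77-fold higher in MDS-L. IFI44L lay at 7.20 with DAC and 4.23 with DMSO in SKM-1, and at 5.69 with DAC and 4.10 with DMSO in MDS-L, with both DMSO arrays under background, so that it was at least 4.99-fold and at least 1.80-fold higher. EPSTI1 lay at 7.65 with DAC and 5.67 with DMSO in SKM-1, and at 6.09 with DAC and 4.77 with DMSO in MDS-L, 3.94-fold higher and, from a DMSO array under background, at least 2.37-fold higher. IFI35, which forms a complex with NMI, lay at 10.87 with DAC and 9.21 with DMSO in SKM-1, and at 8.17 with DAC and 7.78 with DMSO in MDS-L, 3.16-fold and 1.31-fold higher. Its partner NMI lay between 10.96 and 11.36 on all 4 arrays and was 1.29-fold higher in SKM-1 and 1.02-fold in MDS-L. The aminopeptidase LAP3 was 1.55-fold and 1.08-fold higher.

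**Figure D3:**
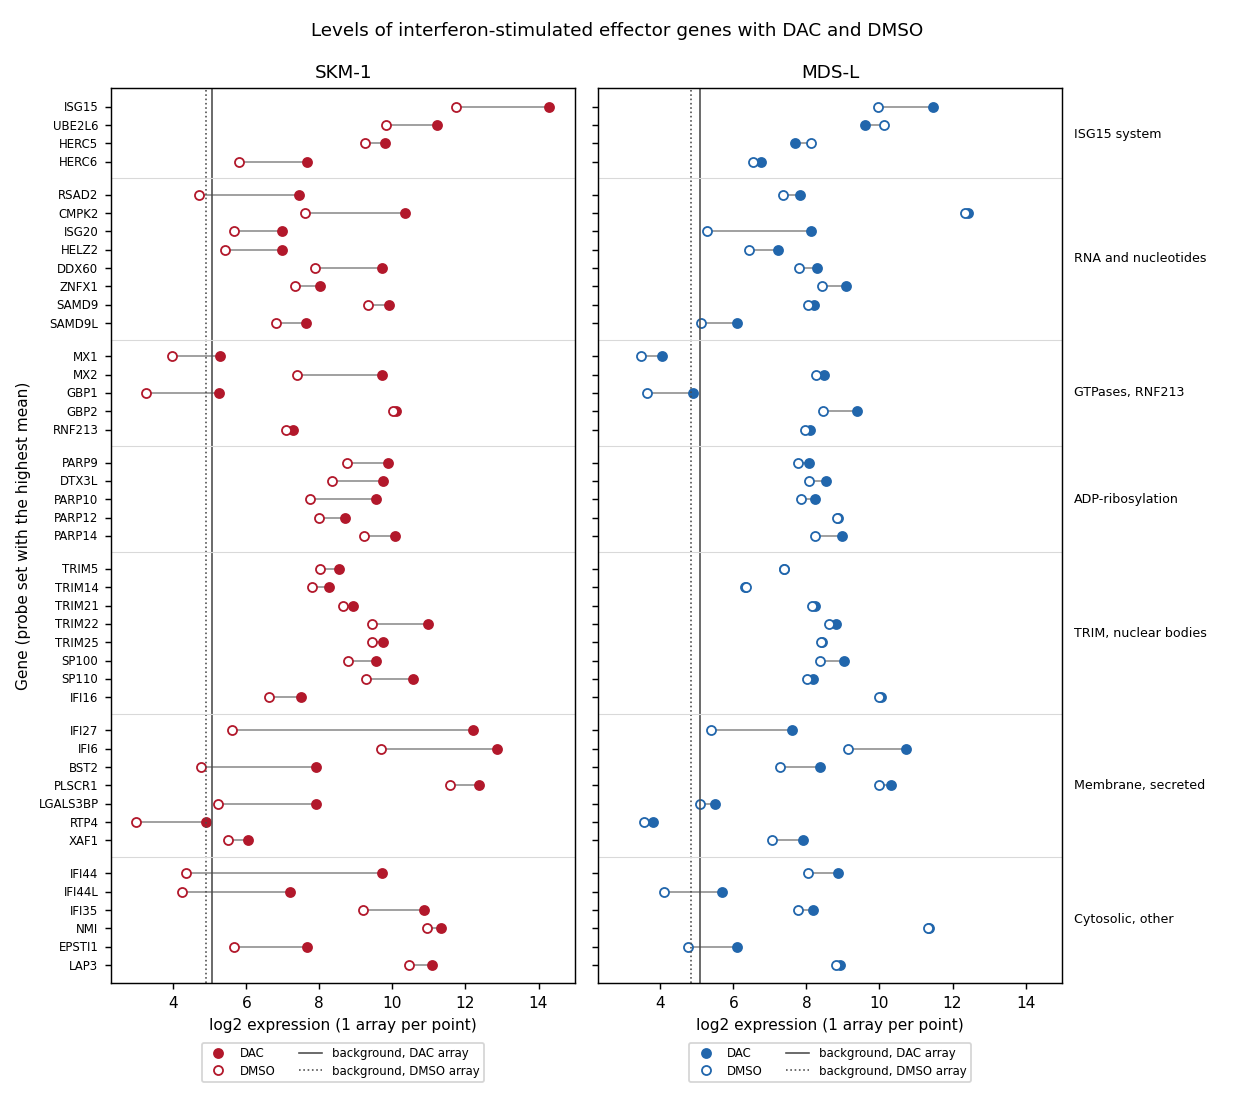
Deposited log2 expression of 43 effector genes with DAC (filled) and DMSO (open), 1 array per point, in SKM-1 (left) and MDS-L (right), grouped by role, with the background of the DAC array (solid) and of the DMSO array (dotted) as vertical lines. Filled points lie right of open points for every gene in SKM-1, and most MDS-L pairs lie close together.

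Most genes had several probe sets, and these mostly gave the same sign in SKM-1. Of 28 genes with several probe sets above background in SKM-1, 26 had all of them higher with DAC and 2, GBP2 and TRIM14, had probe sets on both sides of 0. For BST2, GBP1, IFI44, IFI44L and RSAD2 every such probe set was above background only with DAC, so its sign was fixed in advance. In MDS-L 18 of 27 genes had all probe sets higher, and 7 had probe sets on both sides, namely CMPK2, MX2, RNF213, DTX3L, TRIM22, PLSCR1 and NMI. There the sign of IFI44L was fixed in the same way. The shares over all genes with several probe sets were not computed. The pooled standard deviation between log2 changes of the probe sets of a gene was 0.47 for effector genes in SKM-1 and 0.34 in MDS-L. It is a spread between probe sets of the same 2 arrays and leaves out any variation between repeated cultures. Values as deposited were used for it, including DMSO values under background. Both probe sets of IFI27 showed the order of the lines, with changes of 6.61 and 5.25 in SKM-1 and 2.22 and 1.02 in MDS-L. All 3 probe sets of IFI44 above background in SKM-1 gave changes between 5.29 and 5.49 as deposited, from DMSO values under background, which makes them at least 3.40 to at least 4.83 once raised. For CMPK2 the 3 probe sets gave 2.75, 1.42 and 0.01 in SKM-1, so the size of its change rested on the probe set used. Taken as the median over probe sets, the SKM-1 changes of CMPK2, HELZ2 and PARP10 were 0.73, 0.76 and 0.96, under the 2-fold mark, and that of IFI44, with 3 further probe sets under background on all 4 arrays, was 1.03. With background at the 99th percentile of the olfactory receptor probe sets, the SKM-1 changes of RSAD2, IFI44L, HELZ2 and ISG20 were 0.88, 0.64, 0.42 and 0.41, also under it, and ISG20 was then 2-fold higher in MDS-L only. EPSTI1 in MDS-L had a log2 change of 0.26 with background at the median of each array.

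**Figure D4:**
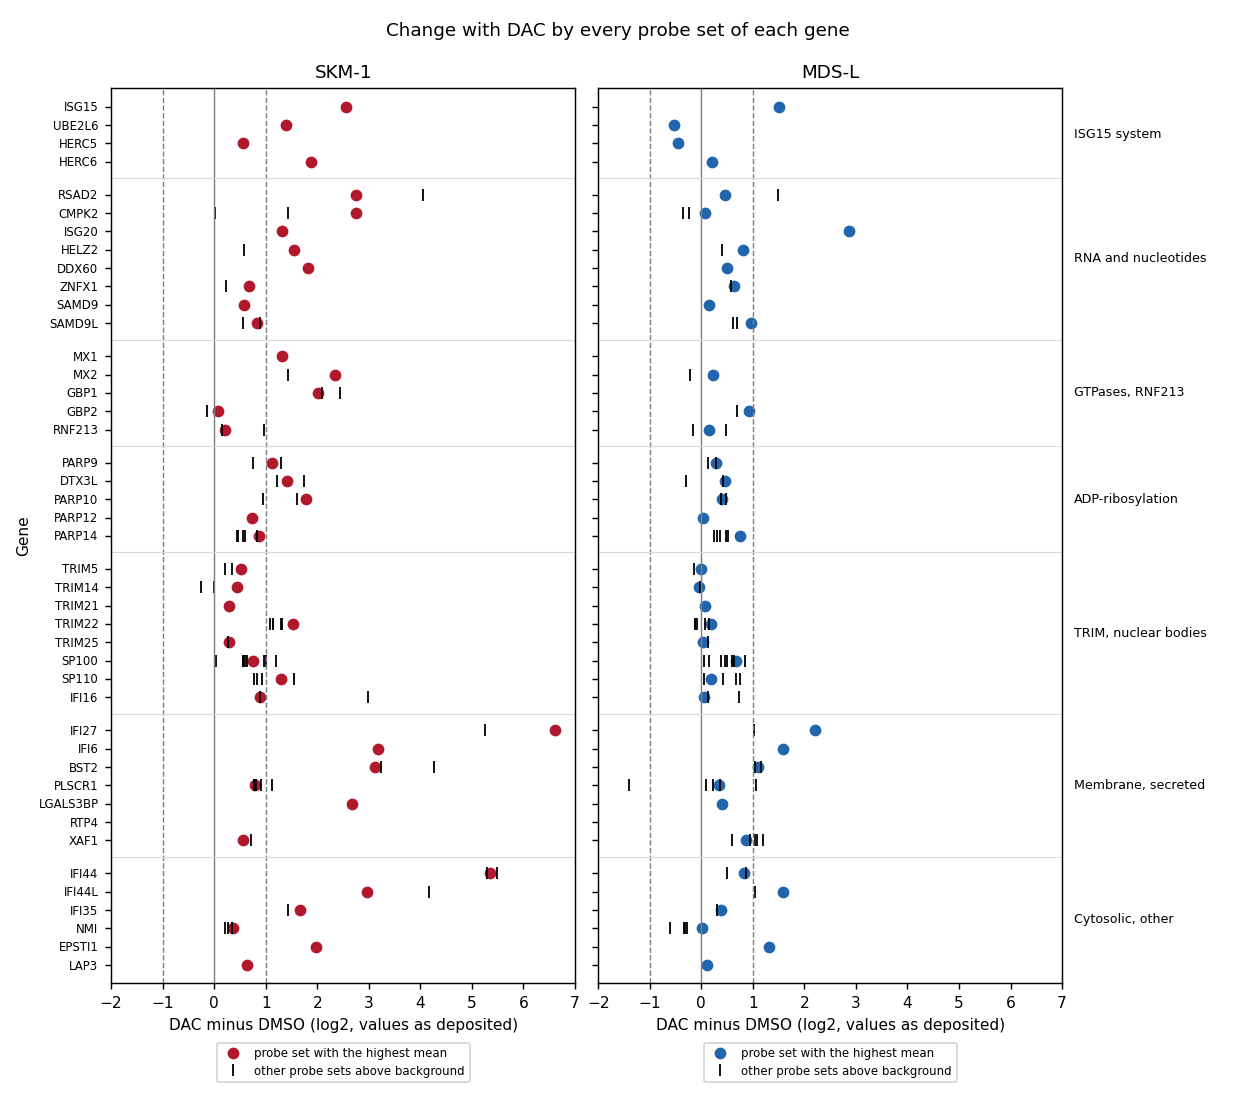
DAC minus DMSO on the log2 scale, from values as deposited, for every probe set above background in SKM-1 (left) and MDS-L (right), with the probe set that represents the gene as a filled point and others as ticks. Dashed lines mark 2-fold changes. The ticks of IFI27, IFI44 and BST2 in SKM-1 all lie beyond the 2-fold line, and the lowest tick in MDS-L is a PLSCR1 probe set at -1.40.

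More effector genes were higher in SKM-1 than in MDS-L with DAC than with DMSO. Of 40 genes measured in both lines, 24 were at least 1 log2 unit higher in SKM-1 with DAC, where 14.8% of all genes were, and 5 were at least 1 unit lower, where 14.2% were. With DMSO 11 were at least 1 unit higher, where 10.4% of all genes were, and 7 were at least 1 unit lower, where 11.8% were. The median SKM-1 minus MDS-L difference was 1.28 with DAC and 0.33 with DMSO. At least 2 units lower in SKM-1 with DAC were CMPK2 (-2.07) and IFI16 (-2.54), and with DMSO these 2 and IFI44, RSAD2 and BST2 were. The IFI44 difference was 0.86 with DAC and -3.67 with DMSO, which crossed 0, while the RSAD2 and BST2 differences with DAC were -0.38 and -0.47, against -2.66 and -2.51 with DMSO. The SKM-1 values with DMSO of these 3 genes are under background, and raised to it the differences with DMSO were -3.15 for IFI44, -2.48 for RSAD2 and -2.39 for BST2. At least 2 units higher in SKM-1 were 10 genes with DAC and 0 with DMSO. The shares of all genes past 2 units were not computed, so the counts at that mark are not set against genes in general.

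**Figure D5:**
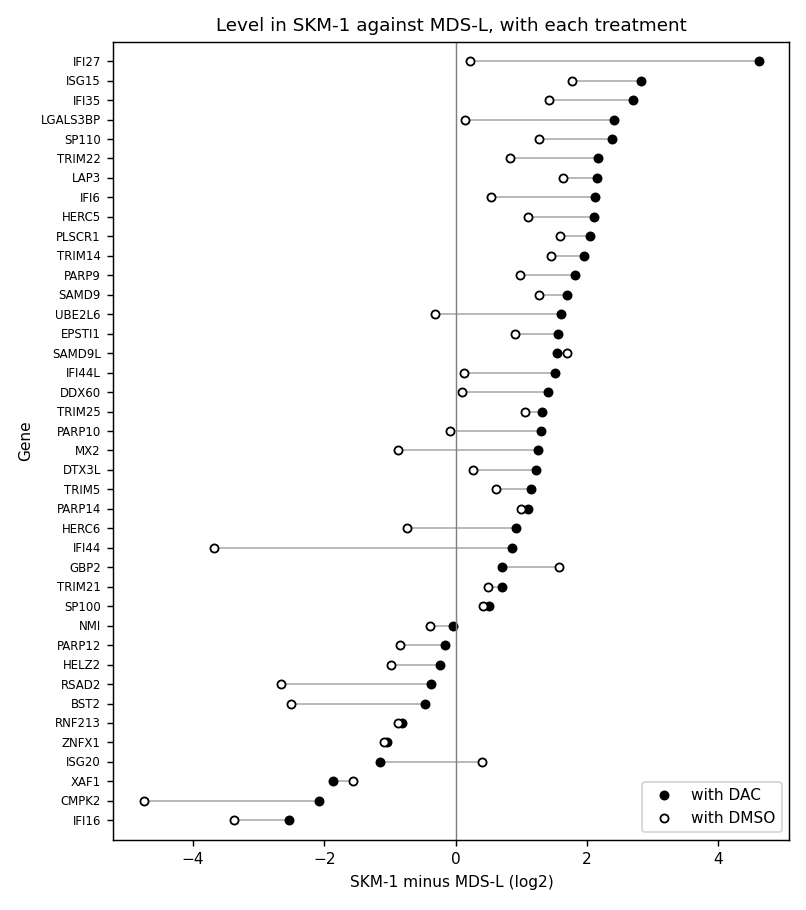
SKM-1 minus MDS-L on the log2 scale for 40 effector genes measured in both lines, with DAC (filled) and with DMSO (open), ordered by the value with DAC, from values as deposited. Most filled points lie right of the open ones, with the longest shifts for IFI27 and IFI44, and ISG20 and GBP2 shift to the left.

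Interferon genes themselves were not detected above background. All 17 ligand genes with a probe set, among them IFNB1 and IFNL1 (named after their values were seen), lay under background on all 4 arrays, a level that does not show their RNA to be absent. The highest of these values was 4.91, for IFNA14 in MDS-L with DAC. Of the receptor chains, 0 of 5 measured were 2-fold different in either line. Of 9 measured signaling genes, IRF7, the factor that amplifies type I interferon transcription, was 5.77-fold higher in SKM-1 and 1.71-fold in MDS-L. IRF9 was 2.02-fold and 2.43-fold higher, and the others changed by less than 2-fold. Among 8 measured nucleic acid sensors, 3 were at least 2-fold higher in SKM-1 and 0 in MDS-L. They were DHX58 at 3.55-fold, RIGI at 2.43-fold and the kinase EIF2AK2 at 2.11-fold in SKM-1, against 1.39-fold, 1.46-fold and a log2 change of -0.14 in MDS-L. Of the IFIT, IFITM and OAS families, 8 of 11 measured were at least 2-fold higher in SKM-1 and 4 of 9 in MDS-L, and their medians were 2.11 and 0.90. IFIT1, IFIT3, OAS1 and IFIT2 were 20.1-fold, 7.26-fold, 6.02-fold and 6.38-fold higher in SKM-1. Of 8 housekeeping genes, 0 were 2-fold different, with medians of -0.08 in SKM-1 and -0.12 in MDS-L.

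An effect of DAC common to both lines was tested with limma across all 11984 genes measured in both, in a model with the line as blocking factor and a single degree of freedom left for error. By limma 0 of 40 effector genes and 0 of all genes (0.00%) had an adjusted p under 0.05, and the lowest adjusted p of an effector gene was 0.413. Over 5 alternatives that kept the filter on background that lowest adjusted p by limma ran from 0.144 to 0.452. At an unadjusted p under 0.05, 21 of 40 effector genes passed, all of them higher with DAC, where 6.09% of all genes passed in that direction. The common log2 change was above 0 for 40 of 40 effector genes, and for 38 of 39 with the median over probe sets. The share of all genes above 0 was not computed for this fit. For IFI44L, under background with DMSO in both lines, the rule for raised values fixed the sign. Over the 40 genes the median common change was 0.84, against 0.04 over all genes. EPSTI1 had a common log2 change of 1.61 with a standard error of 0.23, and ISG15 had 2.02 with 0.29. The EPSTI1 values rest on an MDS-L DMSO value raised to background, so they depend on the background level chosen. IFI27 had a larger change and a larger error, 4.41 with 0.98, since the lines differed most for it. All 3 had an adjusted p of 0.413 by limma. The model takes the difference between the lines as error, so a gene with unlike changes in the lines has a wide interval.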

How the data were processed

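Affymetrix PrimeView arrays, 1 per condition, measured the RNA of both cell lines. Per the labels and the study's methods, the authors extracted RNA (Trizol in the labels, RNeasy in the methods), scanned the arrays and deposited log2 expression values. The methods name RMA in Partek Genomics Suite, whereas MAS5 is named in the submitters' processing notes. The genome build is not given in the sources used here. The values were used as deposited. Of 49395 probe sets, 44994 had 1 symbol, 1832 had several and were left out, and 2569 had none. Background, raised values and the representing probe set are described with the results. Fold counts within a line had no test, since the number of arrays limits the precision. The common effect used limma 3.58.1 in R 4.3.3 (cell line as block, eBayes with trend, two-sided, Benjamini-Hochberg). Other steps used Python 3.11.15, numpy 2.4.6, pandas 2.3.3 and matplotlib 3.10.9. Procedures were tested on simulated data in which changed genes had equal changes in both lines and no value was under background. That setting differs from these arrays, so it does not show how the procedures act on unlike changes or raised values. Promoter windows are from RefSeq, build GRCh38.p14.

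The members, the other gene lists and the tests were chosen with earlier results of these data known. Named in full were genes at least 2-fold different in either line, under background on all 4 arrays, or with opposite signs in the lines, and members of described paralog pairs (MX1, GBP1, GBP2). IFI16 was added after its values were seen. The alternatives were other background levels, fold thresholds, scalings, probe set choices and limma settings.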

Additional observations from a re-analysis of the deposited data

Results flagged for a closer look

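The change with DAC had opposite signs in the lines for 3 genes, by the probe set that represents each. SKM-1 minus MDS-L, the log2 change of UBE2L6 differed by 1.92, that of HERC5 by 1.00 and that of TRIM14 by 0.49. All 3 were higher with DAC in SKM-1 and lower in MDS-L, and each difference rests on 4 arrays and was not tested. UBE2L6 and HERC5 have 1 probe set each. The TRIM14 value in MDS-L was -0.04, and its other probe sets above background in SKM-1 gave 0.00 and -0.26, so its direction in SKM-1 differed between probe sets.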

How the results depend on the processing

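With 1 array per condition, no replicate could be left out, and the limma model already pairs DAC with DMSO within each line. No pairing beyond that was possible, since each condition has 1 array. Signal near background limits MX1, GBP1, RTP4 and the bounds. Counts of genes at least 2-fold higher stayed within 1.5 times their value under other background levels, scalings and probe set choices, at 16 to 25 in SKM-1 and 4 to 9 in MDS-L. The lowest counts came without probe sets that can bind several transcripts, 16 of 32 in SKM-1 and 4 of 30 in MDS-L, a setting in which IFI27, ISG15, UBE2L6 and LGALS3BP have no value. At a 1.5-fold mark 15 genes were higher in MDS-L and 13 in both lines, and at a 3-fold mark 3 and 2 were. When any probe set could count, 1 gene was 2-fold lower, PLSCR1 in MDS-L. The SKM-1 median was 0.88 with background at the 99th percentile and 0.91 with the median over probe sets. By limma 0 effector genes passed under 5 alternatives, and 29 of 43 passed with no filter on genes under background, a setting in which raised values are constant by construction and 6989 of 18132 genes passed. Of 541 values of single genes under alternatives, 527 kept their side of the 2-fold mark, 10 lost it and 4 gained it, and none reversed a 2-fold change. Genes with no value under an alternative are not among the 541, and their calls count neither as kept nor as lost. With background at the 99th percentile, for example, 39 effector genes were measured in SKM-1 and 35 in MDS-L, against 42 and 40. The size moved by more than the spread between probe sets of all genes (0.29 in SKM-1, 0.28 in MDS-L) in 55 of the 541 and by at least 1 log2 unit in 11, for example for IFI44 in SKM-1 to 1.03 with the median over probe sets, and to 1.33 for BST2 and 1.35 for LGALS3BP with background at the 99th percentile.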

Other observations

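Single probe sets of some effector genes gave values unlike those of the rest of the gene. For IFI16, 1 probe set lay at 7.61 with DAC and 4.63 with DMSO in SKM-1, a log2 change of 2.99 as deposited and, since the DMSO value is under background, of at least 2.73, where the other 2 probe sets gave 0.89 each. That probe set also had the largest change of the gene in MDS-L, 0.73, against 0.06 and 0.13. For PLSCR1, 1 probe set lay at 5.14 with DAC and 6.54 with DMSO in MDS-L, a change of -1.40, where the other 5 gave 0.10 to 1.06, and it was 1.12 in SKM-1. RSAD2 had a change of 1.49 in MDS-L by its second probe set, against 0.46 by the first, while in SKM-1, with both DMSO values under background, the changes were at least 2.58 and at least 2.56. These genes were picked after their values were seen.

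Feedback inhibitors of cytokine signaling differed by line. SOCS1 lay at 5.55 with DAC and 4.35 with DMSO in SKM-1, and at 9.83 with DAC and 8.99 with DMSO in MDS-L. SOCS3 lay under background in SKM-1 and was 2.52-fold higher with DAC in MDS-L, at 7.56 with DAC and 6.22 with DMSO. SOCS1 was thus at least 1.58-fold higher in SKM-1 and 1.79-fold higher in MDS-L, and the other 3 genes of that list were less than 2-fold different in both lines.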
